A study of Saccharomyces cerevisiae with 14 samples.

Results

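Yeast taken 60 h after pitching was set against yeast taken 30 h after pitching in a full-scale lager fermentation. The comparison used 5 of the study's 14 arrays, chosen by the fermentation time in their labels: 3 at 60 h (replicates 1, 2 and 3) and 2 at 30 h (replicates 1 and 2). Both groups were the lager yeast strain CB11 from the same 3275 hL cylindroconical vessel, with no altered gene and no added agent named in the labels, and fermentation time sets the groups apart. The yeast was in the fourth generation of reuse, and the wort held 85% malt and 15% sugar adjunct and was oxygenated on its way into the vessel. All replicates came from that vessel, so the p-values below measure the spread between these samples and not between fermentations. The other arrays were taken at 8, 80 and 102 h. The arrays were Affymetrix Yeast Genome 2.0 chips hybridised with biotin-labelled RNA, whose first strand is copied from the 3′ end of each messenger with an oligo-dT primer. Of 10928 probe sets, 5498 are annotated to 5449 S. cerevisiae genes. The 5338 probe sets (5298 genes) above background on at least 2 arrays of some time were tested.

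After pitching, brewing yeast meets wort rich in sugar and amino acids and a short supply of oxygen. It makes membrane lipids while oxygen lasts, takes up amino acids and sugars in a set order, ferments glucose and then maltose to ethanol, and stops dividing while fermentation goes on. In S. cerevisiae, genes for ribosomes follow growth rate and are controlled through the nutrient kinases TOR and protein kinase A, proteasome genes share the activator Rpn4, and the enzymes that split daughter from mother cells are made as mitosis ends. Lager yeasts are hybrids that also carry the genome of S. eubayanus, and a probe set designed on S. cerevisiae cannot tell which parental copy gave its signal. The arrays measure relative levels, so fewer cells of a kind and less messenger per cell cannot be told apart.

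The 60 h arrays were unequal in quality. The mean log2 ratio of 5′ to 3′ signal over 6 control transcripts was -4.08, -1.66 and -0.68 on 60 h replicates 1, 2 and 3, against -0.72 and -0.64 on the 30 h arrays. The deposited 3′ signal of 25S ribosomal RNA was 659, 1372 and 8582 at 60 h, against 8486 and 8230 at 30 h. Replicate 3 therefore resembled the 30 h arrays in both measures, while replicates 1 and 2 were lower in both. Log2 signals of replicate 1 correlated less with replicate 3 (Pearson r = 0.90 across probe sets, which are not independent replicates) than replicate 2 did (0.97), and the 30 h arrays correlated at 0.97 with each other. The array at 8 h labelled replicate 1 shared the low 5′ signal (-3.30) and enters this comparison through the normalization and the shared estimate of spread.

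**Figure D1:**
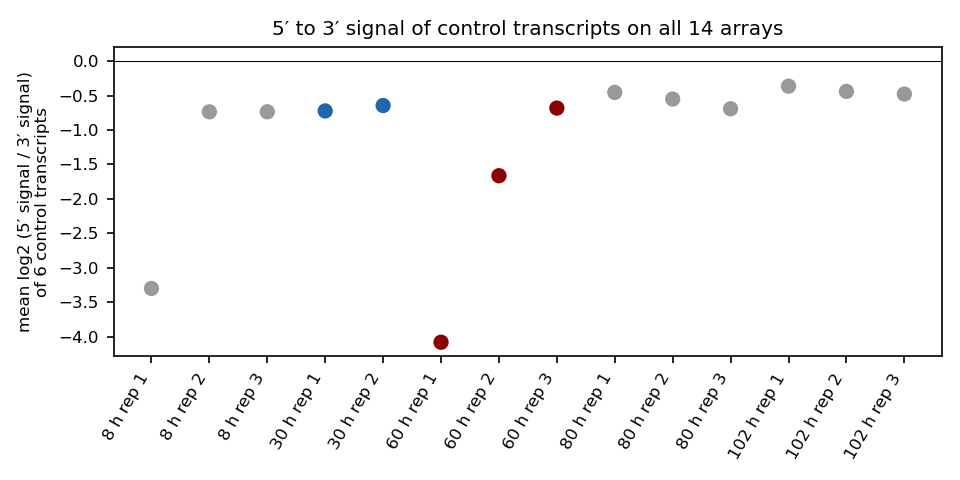
Mean log2 ratio of 5′ to 3′ signal over 6 control transcripts on each of the 14 arrays, with 60 h in red, 30 h in blue and the other times in grey, in time order. Replicates 1 and 2 at 60 h (-4.08 and -1.66) and replicate 1 at 8 h (-3.30) lie below the others, and 60 h replicate 3 (-0.68) lies beside the 30 h arrays (-0.72 and -0.64).

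In the fit on all arrays, 866 probe sets were higher at 60 h (16.2% of those tested) and 627 were lower (11.7%), at a limma adjusted p under 0.05. The change was at least 2-fold for 264 of the higher (4.95%) and 255 of the lower ones (4.78%). A probe set is said to hold on replicate 3 when it also passed, in the same direction, in a fit with replicate 3 as the only 60 h array, where that array is assumed to vary like the other groups. By this, 367 rises (6.88%) and 374 falls (7.01%) held, and 131 rises (2.45%) and 163 falls (3.05%) were at least 2-fold in both fits. That fit alone called 456 higher (8.54%) and 473 lower (8.86%), 89 (1.67%) and 99 (1.85%) of them not called on all arrays. None of the 866 and 627 called probe sets changed sign on replicate 3. For 860 and 625 of them replicate 3 lay beyond both 30 h arrays on the called side. Replicate 3 and the 30 h arrays are also part of the full fit, so this agreement and the counts that held are no separate check. With 60 h replicates 1 and 2 and 8 h replicate 1 all left out, 951 probe sets were higher (17.8%) and 831 were lower (15.6%), and 633 (11.9%) and 537 (10.1%) were called in the same direction by both that fit and the full one. The arrays of 60 h and 30 h did not overlap for 1418 higher (26.6%) and 1135 lower probe sets (21.3%), and 1234 (23.1%) and 933 (17.5%) had an unadjusted p under 0.05. Without 30 h replicate 2 the counts were 335 higher and 224 lower in the full fit, and 164 rises and 163 falls held. Centring each array on its median in place of quantile normalization gave 47% of calls higher, against 58% in the fit used here, with a shift of -0.09 (log2) in the median over all tested probe sets.

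Levels below are signals after quantile normalization between arrays, given for 60 h replicates 1, 2 and 3 and then for 30 h replicates 1 and 2. Changes are log2 60 h minus 30 h with the standard error from the limma fit, and genes were taken by a rule described under the processing steps. Of the 15 largest rises and 15 largest falls that held on replicate 3, the falls were led by genes of the cell surface and cell separation. The rises belonged to many processes, from vitamin synthesis to pheromone and stress genes. List counts below stand beside 16.2% higher and 11.7% lower of all tested probe sets. Counts that held stand beside the shares of all probe sets that held, given above.

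**Figure D2:**
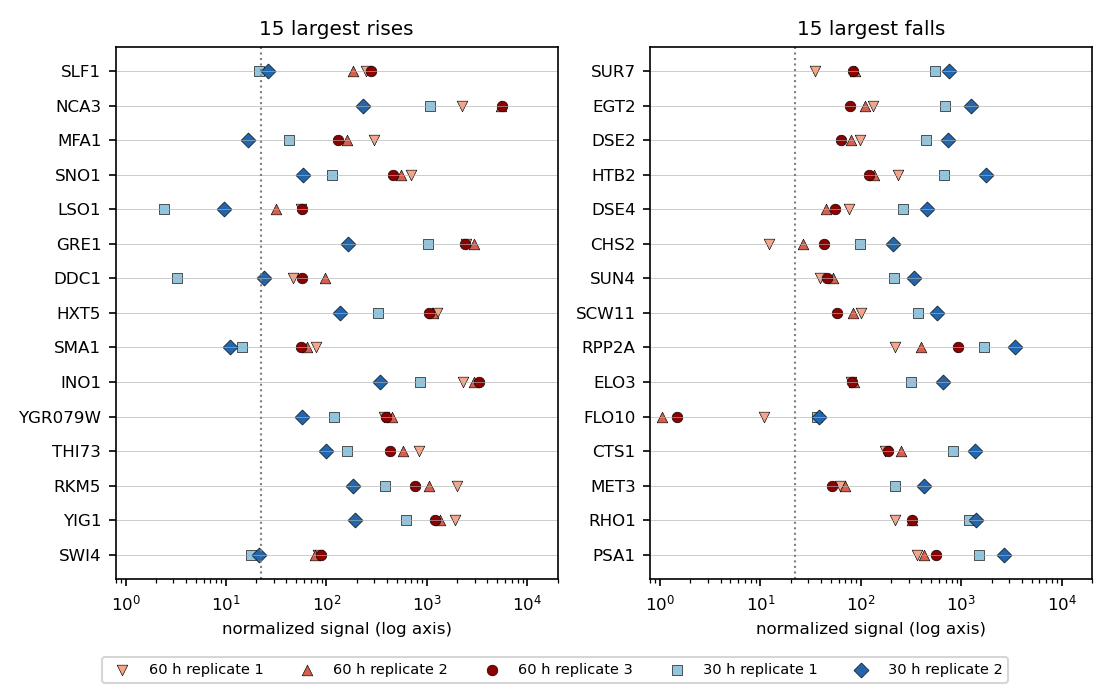
Normalized signal on each of the 5 arrays (log axis, 60 h in red shades, 30 h in blue shades) for the 15 largest rises (left) and 15 largest falls (right) that held on 60 h replicate 3. The dotted line marks the background threshold of 22.1, and in SUR7 and SLF1, first in their panels, the 60 h and 30 h arrays lie far apart.

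Genes for cytosolic ribosomal proteins were lower at 60 h as a group. Of 128 tested genes, 98 fell and none rose, and the median change was -0.95, against 0.05 over all tested probe sets. With replicate 3 as the only 60 h array the median was -1.09, 112 genes were lower and 96 of the 98 falls held. By array the median of the 75 large-subunit genes was -0.71, -1.12 and -1.22 on replicates 1, 2 and 3, and that of the 53 small-subunit genes was -0.54, -0.93 and -0.98, so the 60 h array of highest 5′ signal had the largest shift. Probe sets of 26 of these genes are marked as shared between near-identical transcripts, as many ribosomal proteins are encoded by a pair of genes.

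RPL17B, a protein of the large subunit, had signals of 298, 303 and 315 at 60 h, against 888 and 1595 at 30 h. It fell by 1.96 ± 0.19 (adjusted p = 3.7e-05), a 3.9-fold lower level. The 60 h arrays lay close together and far below both 30 h arrays, which differed from each other more. RPS7A, of the small subunit, had 970.5, 1045 and 1069 at 60 h, against 3282 and 4163 at 30 h, and fell by 1.85 ± 0.14 (adjusted p = 1.2e-05). RPS7B, its near copy, fell by 2.03 ± 0.28. In RPL31B the 60 h arrays stood at 344, 195 and 206, against 752 and 1525 at 30 h, and its fall of 4.46-fold was slightly larger on replicate 3, where it fell by 2.38. The falls of RPL9B, RPL13A, RPS26B and RPS1A were between 3.54-fold and 4.46-fold, and all of them held on replicate 3.

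Some ribosomal protein genes differed among the 60 h arrays in the order of their 5′ signal. RPL3, which reaches the catalytic centre of the large subunit, had 822, 1999.7 and 2593 at 60 h, against 4942 and 8114 at 30 h. It fell by 1.97 ± 0.39 with all arrays and stood at -1.29 on replicate 3. RPP2A, an acidic protein of the ribosomal stalk, stood at 219, 398 and 928 at 60 h, against 1699 and 3421 at 30 h, with a change of -2.48 ± 0.47 with all arrays and -1.38 on replicate 3. RPS8B had 516, 1606 and 2307, against 3855 and 6083 at 30 h, and its change of -1.07 on replicate 3 did not pass (adjusted p = 0.16). The calls of RPL3, RPP2A and RPS8B also ended without 30 h replicate 2. With that array left out 36 large-subunit and 22 small-subunit genes fell.

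Among genes that build ribosomes, more rose than fell. Of 120 ribosome biogenesis genes 32 rose and 8 fell (26.7% and 6.67%, against 16.2% and 11.7% of all probe sets), with a median of 0.33, and on replicate 3 the median was 0.25 with 16 higher and 2 lower, of which 14 rises and 1 fall held. REI1, which acts late in large-subunit maturation, had 820.0, 643 and 588 at 60 h, against 281 and 197 at 30 h. It rose by 1.53 ± 0.19 (adjusted p = 0.00014), and the arrays of both times did not overlap. RRS1, a large-subunit assembly factor, rose by 1.35 ± 0.21, BFR2, of the early small-subunit precursor, by 1.32 ± 0.18, and NOP10, of the RNA-guided pseudouridylation particle, by 1.25 ± 0.18. In the 38 tested genes of RNA polymerases I and III, which make ribosomal and transfer RNA, 10 rose and 3 fell, but 2 rises and 1 fall held. RRN10, a polymerase I initiation factor, rose by 1.21 ± 0.28 and by 1.36 on replicate 3, and RPC25, a polymerase III subunit, rose by 0.94 ± 0.17. The call of RRN10 ended without 30 h replicate 2, and that of RPC25 ended with array quality weights. RPA190, the largest polymerase I subunit, fell by 0.90 ± 0.22 but did not pass on replicate 3 (-0.63, adjusted p = 0.084). Of the polymerase list 26.3% rose and 7.89% fell, against 16.2% and 11.7% of all probe sets. Without 30 h replicate 2 the biogenesis list had 13 rises and 1 fall and the polymerase list 4 and 0. Without 30 h replicate 1 they had 21 and 6 rises.

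Among 58 genes for transfer RNA synthetases and translation factors, 4 rose and 11 fell, and 2 and 6 of these held. ANB1, the form of the translation factor eIF5A made when oxygen is short, had 525, 563 and 533 at 60 h, against 1166 and 1932 at 30 h, and fell by 1.48 ± 0.19. TEF4, a subunit of elongation factor 1B, fell by 1.36 ± 0.22 and stood at -0.92 on replicate 3. ILS1, isoleucyl-tRNA synthetase, fell by 0.79 ± 0.16, but its call ended without 30 h replicate 2. Of this list 6.9% rose and 19% fell, against 16.2% and 11.7% of all probe sets. It had 2 rises and 3 falls without 30 h replicate 2. Mitochondrial ribosomal proteins gave few calls: of 63 genes 2 rose and 2 fell, none of these held, and the median was -0.005, or 0.26, -0.02 and -0.12 on replicates 1, 2 and 3.

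**Figure D3:**
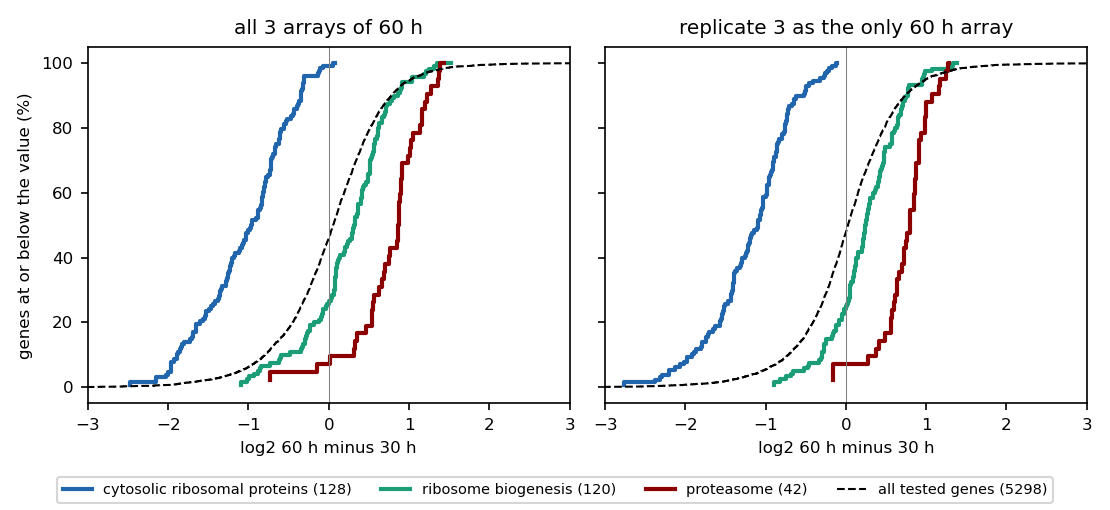
Cumulative share of genes (vertical axis, %) by log2 60 h minus 30 h (horizontal axis) for cytosolic ribosomal proteins (128 genes, blue), ribosome biogenesis (120, green), the proteasome (42, dark red) and all tested genes (5298, dashed), on all 3 arrays of 60 h (left) and with replicate 3 as the only one (right). Ribosomal proteins lie left of all genes (medians -0.95 and -1.09) and the proteasome right of them (0.87 and 0.80), in both panels.

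The proteasome, which degrades proteins tagged with ubiquitin, was higher at 60 h in most of its genes. Of 42 tested genes 33 rose and none fell, with a median of 0.87, and 28 of the rises held on replicate 3, where the median was 0.80. PRE3, a catalytic subunit of the core, had 2646, 3037 and 2921 at 60 h, against 1307 and 1154 at 30 h, and rose by 1.22 ± 0.12 (adjusted p = 3.9e-05). The 60 h arrays lay close together, and each was above both 30 h arrays. UMP1, which assembles the core and is then degraded, stood at 5571, 4399.7 and 3372 at 60 h, against 1841 and 1398 at 30 h, a 2.71-fold rise. NPL4, a cofactor that brings tagged proteins to the proteasome with Cdc48, had 1737, 1882 and 1639.8, against 746 and 618 at 30 h, and rose by 1.37 ± 0.14. The proteasome-binding proteins ECM29 and BLM10 rose by 1.38 ± 0.23 and 1.38 ± 0.20, and the core subunit PRE10 rose by 1.27 ± 0.21.

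UBI4, the polyubiquitin gene, rose by 0.99 ± 0.13, with 5036, 4317 and 4282 at 60 h, against 2531 and 2047 at 30 h. RPN4, the activator that proteasome genes share, stood at 2202, 2352 and 2433, against 1891 and 1763 at 30 h, and its rise of 1.27-fold was small (adjusted p = 0.037) and did not hold on replicate 3 (adjusted p = 0.071). The call of RPN4 was lost in most alternatives, among them leaving out either 30 h array or 60 h replicate 2 or 3. For the proteasome list the number of rises ranged over 24 to 37 as each of the 60 h and 30 h arrays in turn was left out.

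Chaperones, which help proteins fold, were split, with 31.7% of the list higher and 14.6% lower, against 16.2% and 11.7% of all probe sets. Of 41 genes 13 rose and 6 fell, and 12 rises and 1 fall held. SSA3, a stress-inducible Hsp70, had 2084, 3099 and 2878 at 60 h, against 1094 and 884 at 30 h, and rose by 1.43 ± 0.21. CCT3 and CCT5, subunits of the chaperonin that folds actin and tubulin, rose by 1.01 ± 0.21 and 0.97 ± 0.16. CPR6, a partner of Hsp90, had 962, 1460.5 and 1731 at 60 h, against 511 and 887 at 30 h. It rose by 1.00 ± 0.24, and its call ended without 30 h replicate 1. HSP104, which pulls proteins out of aggregates, fell by 0.86 ± 0.20, and SSB2, the Hsp70 of the ribosome, fell by 0.98 ± 0.26. Neither fall held on replicate 3 (adjusted p = 0.10 and 0.13), and both calls ended without 30 h replicate 2. The list had no fall without 30 h replicate 2 and 12 without 30 h replicate 1. Of 40 autophagy and vacuolar protease genes 7 rose (17.5%, close to the 16.2% of all probe sets) and none fell, and 2 rises held. That list had 2 rises without 30 h replicate 2.

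Several genes that act in splitting daughter from mother cells were among the largest falls, as members of the cell wall list or by size of change. EGT2, a wall protein of the early daughter cell, had 132, 110.4 and 78.2 at 60 h, against 685 and 1259 at 30 h. It fell by 3.15 ± 0.26 (adjusted p = 1.8e-05), an 8.89-fold lower level, and every 60 h array was below both 30 h arrays. DSE2, another daughter-specific wall protein, stood at 97.6, 80.4 and 63.9 at 60 h, against 441 and 743 at 30 h, and fell by 2.85 ± 0.28. SCW11, a wall glucanase of daughter cells, had 100.4, 84.2 and 57.5, against 366 and 575 at 30 h, and fell by 2.55 ± 0.24. In these 3 genes replicate 3 was the lowest of the 60 h arrays, with changes of -3.57 in EGT2 and -3.16 in DSE2 on it.

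CTS1, the chitinase that opens the septum, had 174, 249.9 and 188 at 60 h, against 824 and 1370.1 at 30 h, and fell by 2.40 ± 0.22. DSE4, a daughter-specific glucanase, fell by 2.58 ± 0.40, and SUN4, a glucanase of septation, fell by 2.56 ± 0.38 with 39.2, 52.4 and 45.6 at 60 h, against 211 and 338 at 30 h. All of these held on replicate 3, and their calls in the full fit stayed in each of its alternatives. This does not cover replicate 3 set against the 30 h arrays alone. CHS2, the chitin synthase of the primary septum, had 12.2, 26.5 and 42.7, against 98.7 and 207 at 30 h, and was below the threshold of 22.1 on replicate 1. It fell by 2.58 ± 0.51 with all arrays and stood at -1.75 on replicate 3, and its call ended without 30 h replicate 2. DSE1, of the same daughter-specific group, was near background, with 23.0, 12.1 and 11.1 at 60 h, against 17.5 and 36.6 at 30 h, and did not pass (adjusted p = 0.26).

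NCA3, of the same SUN family as SUN4, went the other way. Its signals were 2242, 5436 and 5588 at 60 h, against 1067 and 233 at 30 h, and it rose by 3.03 ± 0.52 (adjusted p = 0.0011). The 30 h arrays lay far apart, so the rise was 4.13 without 30 h replicate 1 and 1.94 without 30 h replicate 2, and it passed in both.

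Of 46 cell wall genes 4 rose and 16 fell, and 3 and 13 of these held. The median of the list was -0.65, but it was -1.29, -0.39 and -0.25 on replicates 1, 2 and 3, so its size moved with the 5′ signal of the arrays. The part of the low 5′ signal in it was not tested. Of the list 8.7% rose and 34.8% fell, against 16.2% and 11.7% of all probe sets. It had 10 falls without 30 h replicate 2. PSA1, which makes GDP-mannose and is in none of the lists, had 363, 429 and 555 at 60 h, against 1496 and 2676 at 30 h, and fell by 2.18 ± 0.27. PMT4 and PMT2, protein O-mannosyltransferases of the endoplasmic reticulum, fell, with changes of -1.64 ± 0.23 and -1.21 ± 0.15. PMT1, the partner of PMT2, fell by 1.20 ± 0.32 but did not hold on replicate 3 (adjusted p = 0.11). The PMT genes belong to a list of 40 endoplasmic reticulum folding and glycosylation genes, of which 1 rose and 10 fell and 5 falls held, or 3 falls without 30 h replicate 2.

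At the plasma membrane, SUR7, a protein of the membrane domains around eisosomes, had 34.9, 87.8 and 82.8 at 60 h, against 546 and 758 at 30 h. It fell by 3.35 ± 0.38, a 10.2-fold lower level, and stood at -2.96 on replicate 3. WSC2, a sensor of wall stress, stood at 168, 174 and 175, against 353 and 489 at 30 h, and fell by 1.27 ± 0.17, with the 60 h arrays nearly equal. RHO1, the GTPase that turns on glucan synthesis, fell by 2.19 ± 0.44 and stood at -2.01 on replicate 3. The call of RHO1 ended with array quality weights. Of 25 cell integrity signalling genes 4 rose and 4 fell (16% each, against 16.2% and 11.7% of all probe sets). Of 15 genes of eisosomes and membrane domains 1 rose and 2 fell (6.67% and 13.3%), with a median of 0.03.

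Of 58 genes of mitosis and cytokinesis, 4 of which are also in the wall list, 5 rose (8.62%) and 13 fell (22.4%), and 2 rises and 7 falls held. CDC5, the polo kinase of mitosis, had 139, 91.7 and 96.2 at 60 h, against 222 and 325 at 30 h, and fell by 1.33 ± 0.22. KIP1, a spindle kinesin, rose by 1.35 ± 0.18, with 290.3, 252 and 263 at 60 h, against 119.9 and 92.6 at 30 h. HST3, a histone deacetylase with its peak in mitosis, fell by 1.67 ± 0.29. The mitosis list had 2 rises and 5 falls without 30 h replicate 2.

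Among 62 genes of the start of the cycle and of DNA replication 7 rose and 9 fell (11.3% and 14.5%, near the 16.2% and 11.7% of all probe sets), and 2 and 7 held. MCM2, of the replicative helicase, had 135, 126 and 130.0 at 60 h, against 247 and 309.6 at 30 h, and fell by 1.08 ± 0.15. POL30, the sliding clamp, fell by 0.92 ± 0.18, but not without 30 h replicate 2, where the list had 2 rises and 1 fall. SWI4, the DNA-binding part of the factor that switches on G1 genes, rose: its signals were 81.8, 77.4 and 88.9 at 60 h, against 17.9 and 21.3 at 30 h. Both 30 h arrays were below background, so the level was at least 3.74-fold higher at 60 h (adjusted p = 0.00029). FAR1, an inhibitor of G1 cyclin kinase that is counted with the mating genes, stood at 98.6, 97.2 and 138, against 43.8 and 39.0 at 30 h, and rose by 1.41 ± 0.23.

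Of 14 histone genes and regulators 2 rose and 4 fell, and 1 and 3 held, or 1 rise and 1 fall passed without 30 h replicate 2. On all arrays 14.3% of the list rose and 28.6% fell, against 16.2% and 11.7% of all probe sets. HTB2, a gene for histone H2B, had 234, 136 and 121 at 60 h, against 676 and 1766 at 30 h. It fell by 2.80 ± 0.33 and stood at -3.17 on replicate 3, and its change was -3.49 and -2.11 without 30 h replicates 1 and 2.

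Several genes for vitamin B6 and thiamine rose. SNO1 and SNZ1, which together make pyridoxal phosphate, are neighbours read in opposite directions. SNO1 had 694, 555 and 462 at 60 h, against 112 and 58.2 at 30 h, and rose by 2.80 ± 0.30 (adjusted p = 5.4e-05), a 6.95-fold higher level. SNZ1 stood at 2857, 4342 and 3927, against 1466 and 1027 at 30 h, and rose by 1.57 ± 0.22. For both genes the lowest 60 h array was above the highest 30 h array. THI73, a transporter gene repressed by thiamine, had 833, 577 and 432, against 162 and 98.7 at 30 h, and rose by 2.23 ± 0.24. THI13, of the family that makes the pyrimidine part of thiamine, rose by 2.24 ± 0.20, but its probe set is marked as shared with its near copies. THI6, which joins the parts of thiamine, rose by 1.02 ± 0.18. Of 19 tested genes of both pathways 8 rose and none fell, 6 rises held, and the list gave 6 to 8 rises as each of the 60 h and 30 h arrays was left out, and 9 without 8 h replicate 1.

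INO1, which makes inositol phosphate for phospholipids, had 2278, 2916 and 3294 at 60 h, against 855 and 343 at 30 h, and rose by 2.37 ± 0.28. The rise was 3.03 without 30 h replicate 1 and 1.71 without 30 h replicate 2. CHO2, which methylates phosphatidylethanolamine on the way to phosphatidylcholine, rose by 1.03 ± 0.18, and EPT1, of the ethanolamine branch, fell by 1.11 ± 0.17, with 238, 243 and 253 at 60 h, against 543 and 516 at 30 h. The call of CHO2 ended with array quality weights. The inositol and phospholipid list of 21 genes had 3 rises and 2 falls, with a median of -0.10. These were 14.3% and 9.52%, near the 16.2% and 11.7% of all probe sets.

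All 6 measured genes of the fatty acid elongation cycle, which extends acyl chains for sphingolipids, fell. ELO3, the elongase of the longest chains, had 79.1, 85.1 and 81.5 at 60 h, against 312 and 649.6 at 30 h. It fell by 2.46 ± 0.28, a 5.5-fold lower level with nearly equal 60 h arrays. ELO1 and ELO2, the other elongases, fell, with changes of -1.23 ± 0.19 and -0.84 ± 0.21. The enzymes that finish the cycle had smaller changes, of -0.70 ± 0.13 for IFA38, the ketoreductase, -0.61 ± 0.14 for PHS1, the dehydratase, and -0.75 ± 0.18 for TSC13, the enoyl reductase. Each of them held on replicate 3, and in the list of 19 genes of fatty acid synthesis and desaturation 1 rose and 7 fell. The calls of ELO2, PHS1 and TSC13 ended without 30 h replicate 2, where the list had no rise and 3 falls.

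Of 62 genes of amino acid synthesis 10 rose (16.1%, against 16.2% of all probe sets) and 12 fell (19.4%, against 11.7%), and 6 and 5 held, and without 30 h replicate 2 the counts were 3 and 4. LYS9, the saccharopine dehydrogenase of lysine synthesis, had 379.6, 379 and 397 at 60 h, against 1116 and 1957 at 30 h, and fell by 1.94 ± 0.20 (adjusted p = 4.0e-05). Its 60 h arrays were nearly equal and well below both 30 h arrays. LYS12, homoisocitrate dehydrogenase of the same pathway, fell by 0.96 ± 0.17. SER3, which starts serine synthesis, stood at 667, 721 and 763 at 60 h, against 388 and 236 at 30 h, and rose by 1.24 ± 0.18. ILV5, of branched-chain synthesis, rose by 0.92 ± 0.18.

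In sulphur metabolism 6 of 29 genes rose (20.7%) and 7 fell (24.1%), and 2 and 5 held. MET3, ATP sulphurylase, the first enzyme of sulphate assimilation, had 61.3, 69.0 and 51.5 at 60 h, against 218 and 422 at 30 h, and fell by 2.33 ± 0.23, a 5.04-fold lower level. MET5, sulphite reductase, fell by 0.99 ± 0.19, but its call ended without 30 h replicate 2. STR3, cystathionine beta-lyase, which makes homocysteine from cystathionine, went up, with 673, 873 and 709.6 at 60 h, against 239.6 and 144 at 30 h, and rose by 2.01 ± 0.22. CYS3, which makes cysteine from cystathionine, fell by 1.62 ± 0.40 on all arrays but did not hold on replicate 3 (-0.82, adjusted p = 0.12). The sulphur list had 2 rises and 1 fall without 30 h replicate 2.

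Genes of the glycine cleavage complex, which turns glycine into a one-carbon unit, were higher. GCV2 had 6057, 6512 and 5729.7 at 60 h, against 3431 and 2714 at 30 h, and rose by 1.00 ± 0.16, and GCV3 rose by 0.84 ± 0.15. GCV1 rose by 0.91 ± 0.22, though not on replicate 3 (adjusted p = 0.095) or without 30 h replicate 2. IMD4, IMP dehydrogenase, which commits to guanine nucleotides, had 521, 456 and 415, against 1066 and 1631 at 30 h, and fell by 1.51 ± 0.17. In the purine, pyrimidine and one-carbon list that holds these genes, 7 of 36 rose (19.4%, near the 16.2% of all probe sets) and 1 fell, and 5 and 1 held.

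**Figure D4:**
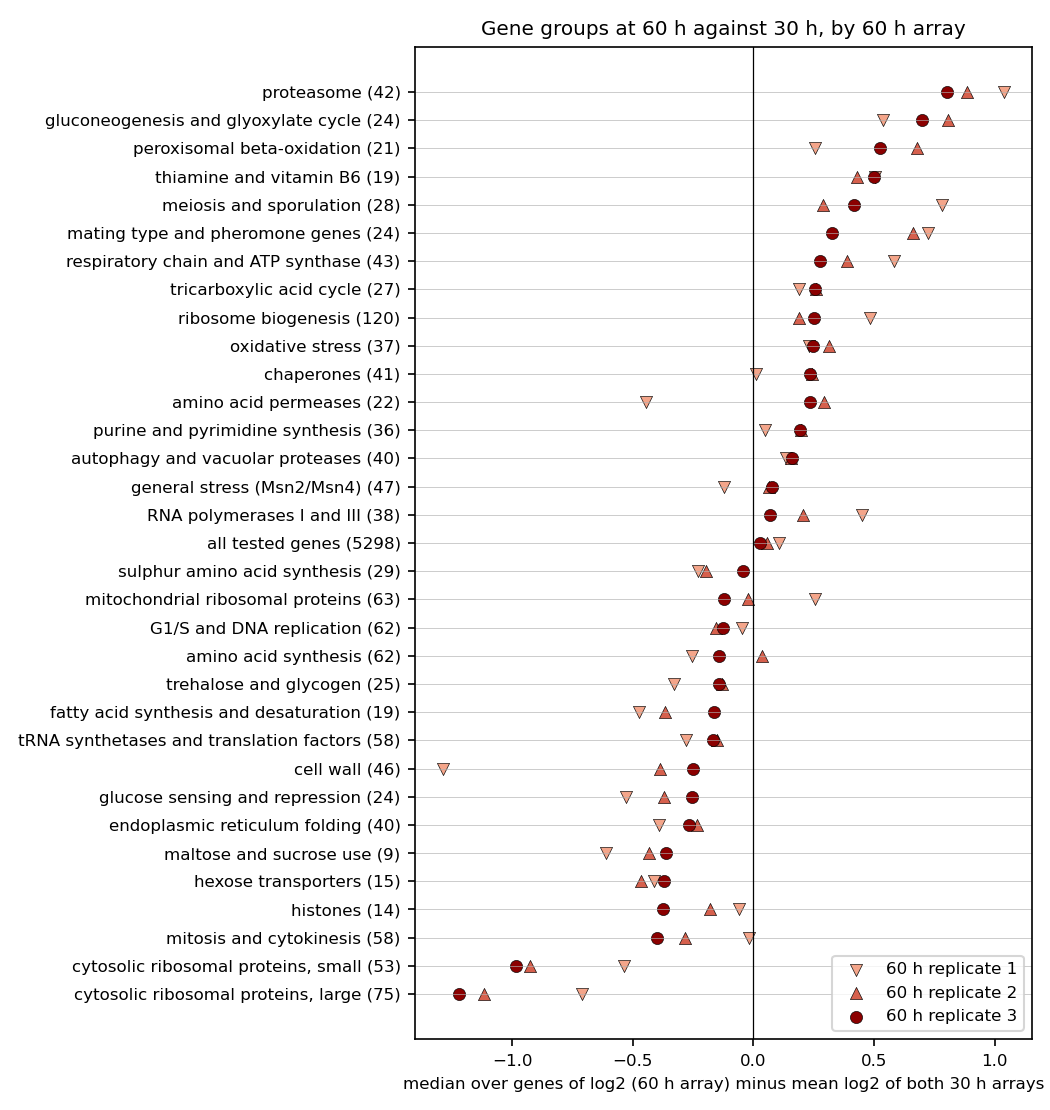
Median over the tested genes of each group of log2 signal at 60 h minus the mean log2 signal of both 30 h arrays, for each 60 h array (the number of genes is in brackets). On replicate 3 the ribosomal protein groups lie lowest (-1.22 and -0.98) and the proteasome highest (0.80), while on replicate 1 the cell wall group is lowest (-1.29), and the cell wall and amino acid permease groups differ most visibly between replicate 1 (-1.29 and -0.44) and replicate 3 (-0.25 and 0.23).

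Of 9 maltose and sucrose genes 6 fell and none rose (66.7% and 0%), and 3 falls held, but 2 or 3 fell without either 30 h array. Of 15 hexose transporters, 4 of them with shared probe sets, 3 rose and 4 fell, and 2 and 3 held, or 2 rises and 3 falls passed without 30 h replicate 2. Among hexose transporters 20% were called higher and 26.7% lower on all arrays, against 16.2% and 11.7% of all probe sets. IMA1, an isomaltase, had 1829.8, 1618 and 1561 at 60 h, against 4447 and 5067 at 30 h, with no overlap and little spread. MAL31, a maltose permease, stood at 2219, 2583 and 2618, against 5247 and 5588 at 30 h. HXT3, a low-affinity hexose transporter, had 125, 116 and 104, against 232 and 297 at 30 h, while HXT5, the transporter of slow-growing cells, had 1268, 1144 and 1048, against 325 and 135 at 30 h. On replicate 3 alone IMA1, MAL31 and HXT3 fell, with changes of -1.60, -1.05 and -1.33, and HXT5 rose by 2.32. HXT11, a transporter also linked to drug resistance, rose by 1.15 ± 0.21.

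Of 24 genes of glucose sensing and repression 8 fell and none rose, but 2 falls held on replicate 3, and 1 fall remained without 30 h replicate 2. CYC8, of the corepressor that silences genes when glucose is present, had 205, 205 and 228 at 60 h, against 434 and 653 at 30 h, and fell by 1.33 ± 0.17. TUP1, its partner, had 198, 444 and 647, against 835 and 1208 at 30 h, and fell by 1.39 ± 0.42 with all arrays but stood at -0.63 on replicate 3 (adjusted p = 0.29). MIG2, a glucose repressor, fell by 1.86 ± 0.44, and neither it nor HXK2, hexokinase 2, passed on replicate 3 (adjusted p = 0.10 and 0.057) or without 30 h replicate 2. The call of TUP1 also ended without 60 h replicate 1 or 30 h replicate 2.

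Of 24 genes of gluconeogenesis and the glyoxylate cycle, 13 rose and 3 fell, and 9 rises and no fall held. ACS1, acetyl-CoA synthetase, had 2651, 4292 and 3855 at 60 h, against 1384 and 689.8 at 30 h, and rose by 1.85 ± 0.30. IDP2, the cytosolic isocitrate dehydrogenase that makes NADPH, stood at 3276, 1849 and 1704, against 706 and 598 at 30 h, and rose by 1.74 ± 0.33. FBP1, fructose bisphosphatase, had 133, 283 and 493, against 101 and 50.8 at 30 h, so that replicate 1 was little above the upper 30 h array. On replicate 3 FBP1 rose by 2.78, against 1.88 ± 0.44 with all arrays, and its call ended without 30 h replicate 2, where the list had 5 rises.

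Respiration genes gave rises that were smaller on replicate 3. Among 43 respiratory complex and ATP synthase genes there were 19 rises and no fall, 5 rises held, and the median was 0.58, 0.39 and 0.28 on replicates 1, 2 and 3. With centred arrays 6 rose and 1 fell, and without 30 h replicate 2 there were 4 rises. INH1, which blocks ATP synthase from running backwards, had 4742, 3439.6 and 3030.2 at 60 h, against 1401 and 1028 at 30 h. It rose by 1.34 on replicate 3. COX9, a small subunit of cytochrome oxidase, had 3388, 2508 and 2259.8, against 1190.2 and 1151 at 30 h. ATP17, of ATP synthase, rose by 0.96 on replicate 3, and COX23, an assembly factor of cytochrome oxidase, rose by 1.31. In each of INH1, COX9, ATP17 and COX23 the highest 60 h array was replicate 1 and the lowest replicate 3.

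In the tricarboxylic acid cycle 6 of 27 genes rose and none fell, and 2 rises held. IDP1, the mitochondrial isocitrate dehydrogenase that makes NADPH, had 969.5, 1084 and 1081 at 60 h, against 351 and 397 at 30 h, and rose by 1.48 ± 0.16 (adjusted p = 5.4e-05). MPC3, a mitochondrial pyruvate carrier, rose by 0.68 ± 0.14. The rises were 22.2% of the list, against 16.2% of all probe sets. The median of the list was 0.18, and -0.003 with centred arrays. Of 21 genes of peroxisomal beta-oxidation 8 rose and none fell, and 3 rises held. FOX2, the multifunctional enzyme of the cycle, rose by 1.31 ± 0.23, CTA1, the peroxisomal catalase, by 1.21 ± 0.20, and POX1, the acyl-CoA oxidase, by 0.73 ± 0.16. The rises made up 38.1% of the beta-oxidation list, against 16.2% of all probe sets. Without 30 h replicate 2, 2 genes of each list rose, and POX1 was not among them.

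Some genes for storage sugars fell, and of their list 8% rose and 24% fell, against 16.2% and 11.7% of all probe sets. GSY1, a glycogen synthase, had 549, 752 and 853 at 60 h, against 2158 and 2872 at 30 h, and fell by 1.54 on replicate 3. GDB1, the glycogen debranching enzyme, had 44.1, 22.7 and 34.9, against 108 and 90.3 at 30 h, and fell by 1.59 ± 0.32. TPS3 and TPS2, of the trehalose synthase complex, fell, with changes of -1.34 and -0.88 on replicate 3, and TPS3 had 889.5, 829 and 870.0 at 60 h, against 1835 and 2646 at 30 h. The list of 25 such genes had 2 rises and 6 falls, and each fall but neither rise held.

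The shares of general stress genes called were close to those of all probe sets. Of 47 genes under Msn2 and Msn4 6 rose and 5 fell (12.8% and 10.6%, against 16.2% and 11.7% overall), 3 and 2 held, and the median was -0.05, or 0.09 without 60 h replicate 1. GRE1, a hydrophilin made under drying and osmotic stress, had 2443, 2967 and 2379.8 at 60 h, against 1038 and 162 at 30 h, and rose by 2.65 ± 0.49. Its 30 h arrays differed several-fold, and the rise was 3.99 without 30 h replicate 1 and 1.32 without 30 h replicate 2. SPI1, a wall protein of stationary cells, rose by 1.14 ± 0.18. Of 37 oxidative stress genes 11 rose and 1 fell, and 6 and 1 held. TRX3, the mitochondrial thioredoxin, had 4701, 4679 and 3779, against 2060.1 and 1500.0 at 30 h, and rose by 1.31 ± 0.21. OYE2, an NADPH dehydrogenase, fell by 1.10 ± 0.17. YAP1, the main activator of oxidative stress genes, had 841, 1829.8 and 1882, against 877 and 643 at 30 h. It rose by 0.92 ± 0.31 with all arrays although replicate 1 lay between the 30 h arrays, and by 1.33 on replicate 3. The call of YAP1 was lost without either 30 h array and without 60 h replicate 2 or 3. Of the oxidative stress genes 29.7% rose and 2.7% fell, against 16.2% and 11.7% of all probe sets. Without 30 h replicate 2 there were 3 rises among the general and 5 among the oxidative stress genes.

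FLO11, the adhesin of pseudohyphae and biofilms, had 529.6, 848 and 701 at 60 h, against 270.0 and 145 at 30 h, and rose by 1.78 ± 0.24. NRG1, a repressor that acts on FLO11, rose too, with 1326, 1228 and 785, against 399 and 275 at 30 h, a change of 1.71. FLO10, a flocculin, was below background on all 60 h arrays, at 10.8, 1.03 and 1.47, against 36.6 and 38.0 at 30 h, so its level was at least 1.69-fold lower (adjusted p = 0.0021). The flocculation list of 9 tested genes had 3 rises and 2 falls (33.3% and 22.2%, against 16.2% and 11.7% of all probe sets). Its highest change, of 2.12, was in a gene not named here.

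Of 24 mating type and pheromone genes 9 rose and none fell, and 4 held. MFA1, the gene of the a-factor pheromone, had 296, 161 and 130.2 at 60 h, against 42.2 and 16.4 at 30 h, and rose by 2.80 ± 0.42. The rise was 3.48 without 30 h replicate 1 and 2.12 without 30 h replicate 2, which was below the background threshold of 22.1. KAR4, a factor that switches on nuclear fusion genes, rose by 1.01 ± 0.14. The 9 rises were 37.5% of the list, against 16.2% of all probe sets. The list had 4 rises without 30 h replicate 2 or without 60 h replicate 1 or 2. Of 28 genes of meiosis and sporulation 6 rose and none fell, and 1 held, DMC1, the meiotic recombinase, with 456, 285 and 219 at 60 h, against 128 and 86.0 at 30 h. SPO11, which cuts DNA in meiosis, was below background on both 30 h arrays, with 70.7, 61.6 and 38.7 at 60 h, against 14.1 and 18.5 at 30 h. It was at least 2.5-fold higher with all arrays (adjusted p = 0.0046) but did not pass on replicate 3 (adjusted p = 0.11). NDT80, the activator of mid-meiosis, rose by 1.59 ± 0.34 with all arrays but stood at 0.95 on replicate 3 (adjusted p = 0.10). The 6 rises were 21.4% of the meiosis list, against 16.2% of all probe sets. Without 30 h replicate 2 the meiosis list had 3 rises. SMA1, of spore membrane assembly, was below background at 30 h, with 78.5, 63.9 and 56.3 at 60 h, against 14.5 and 11.0 at 30 h, at least 2.98-fold higher.

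Several of the largest rises are in none of the lists, and members of the multidrug, iron and phosphate lists are given beside them. SLF1, an RNA-binding protein linked to copper homeostasis, had 250.0, 186 and 280.4 at 60 h, against 21.2 and 26.5 at 30 h. It rose by 3.31 ± 0.32 (adjusted p = 3.8e-05), a 9.92-fold higher level, and by 3.56 on replicate 3. The 30 h arrays lay on either side of the background threshold of 22.1, which limits the precision of that fold. PDR1, the main activator of drug efflux pumps, had 2069, 1492 and 1332, against 531 and 394 at 30 h, and rose by 1.81 ± 0.21. QDR1, a drug transporter, rose by 1.36 ± 0.28, while PDR12, the weak acid pump, fell by 1.23 ± 0.29 with all arrays and stood at -1.85 on replicate 3. The calls of QDR1 and PDR12 ended without 30 h replicate 2. PDR1, QDR1 and PDR12 belong to a list of 27 genes of multidrug and weak acid export. In that list 3 rose and 6 fell (11.1% and 22.2%, against 16.2% and 11.7% of all probe sets).

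TIS11, which destroys messengers when iron is short, had 55.8, 144 and 153 at 60 h, against 28.9 and 22.4 at 30 h, and rose by 2.07 ± 0.35. Its list of 30 iron genes had 4 rises and 2 falls (13.3% and 6.67%, against 16.2% and 11.7% of all probe sets). PHO8, the vacuolar alkaline phosphatase, had 728, 801 and 628, against 307 and 251 at 30 h, and rose by 1.36 ± 0.15. Its list of 24 phosphate genes had 4 rises and 1 fall (16.7% and 4.17%, against 16.2% and 11.7% of all probe sets). PHO8 had the highest change of that list, and the lowest was -2.33. RKM5, a methyltransferase acting on a ribosomal protein, rose by 2.14 ± 0.35 with all arrays and by 1.51 on replicate 3, its 60 h signals being 2016, 1057 and 760.2, against 384 and 185 at 30 h. YIG1, tied to glycerol formation, rose by 2.08 ± 0.39, and by 2.92 and 1.24 without 30 h replicates 1 and 2. DDC1, of the DNA damage checkpoint clamp, had 46.0, 96.1 and 57.2 at 60 h, against 3.22 and 23.8 at 30 h, the first under the floor of 5.58. It rose by 2.46 ± 0.53, a size that depends on the floor. The call of DDC1 ended without 30 h replicate 1, where the value was 1.41, and the value was 3.50 without 30 h replicate 2. YGR079W, a gene of unknown role, had 373, 452 and 396 at 60 h, against 119.8 and 57.6 at 30 h, and rose by 2.29 ± 0.23. LSO1, a small open reading frame, was below background at 30 h (55.7, 31.8 and 57.7 at 60 h, against 2.4 and 9.64 at 30 h) and at least 2.12-fold higher at 60 h.

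A further set of changes differed among the 60 h arrays in step with their 5′ signal. GDH1, the main glutamate dehydrogenase of ammonium assimilation, had 204, 544 and 1059 at 60 h, against 3219 and 3048 at 30 h. It fell by 2.68 ± 0.57 with all arrays but stood at -1.56 on replicate 3 (adjusted p = 0.071). The amino acid permease AGP1 had 103, 125 and 393, against 1432 and 1112 at 30 h, and GNP1, a glutamine permease, had 146, 316 and 743, against 2033 and 1776 at 30 h. On replicate 3 they stood at -1.68 and -1.35 (adjusted p = 0.10 and 0.082). In all 3 genes every 60 h array was below both 30 h arrays, with replicate 1 the lowest and replicate 3 the highest.

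DIP5, the glutamate and aspartate permease, held: it had 452, 962 and 1001 at 60 h, against 2443 and 2618 at 30 h, and fell by 1.34 on replicate 3. ALP1, a basic amino acid permease, rose by 0.91 ± 0.25 and by 1.14 on replicate 3, but not without 30 h replicate 2 or 60 h replicate 2. Of 22 permeases 3 rose and 4 fell (13.6% and 18.2%, near the shares of all probe sets), and 1 of each held. The median of the list was -0.44, 0.29 and 0.23 on replicates 1, 2 and 3, and without 30 h replicate 2 none rose. PMA1, the proton pump of the plasma membrane, had 247, 819 and 1057 at 60 h, against 1939.9 and 2283 at 30 h. It fell by 1.81 ± 0.59 (adjusted p = 0.035) but stood at -0.99 on replicate 3 (adjusted p = 0.29), and its call also ended without either 30 h array or without 60 h replicate 1.

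HAP4, the activator of respiration genes, and SDH1, a subunit of succinate dehydrogenase, did not pass. HAP4 had 390.0, 940.0 and 1893 at 60 h, against 2302 and 2278 at 30 h, and SDH1 had 632, 2296 and 2701, against 2822 and 2709 at 30 h. On replicate 3 they stood at -0.27 and -0.03, against -1.37 and -0.81 with all arrays. HSP26, a small heat shock protein, and SOD2, mitochondrial superoxide dismutase, had a different sign with and without replicates 1 and 2. SOD2 had 1907, 4701 and 5571 at 60 h, against 4534 and 4059 at 30 h, and its value was -0.22 with all arrays and 0.38 on replicate 3. HSP26 had 2268, 6142 and 6717, against 7607 and 3454 at 30 h, with values of -0.18 and 0.39. Neither passed in either fit.

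**Figure D5:**
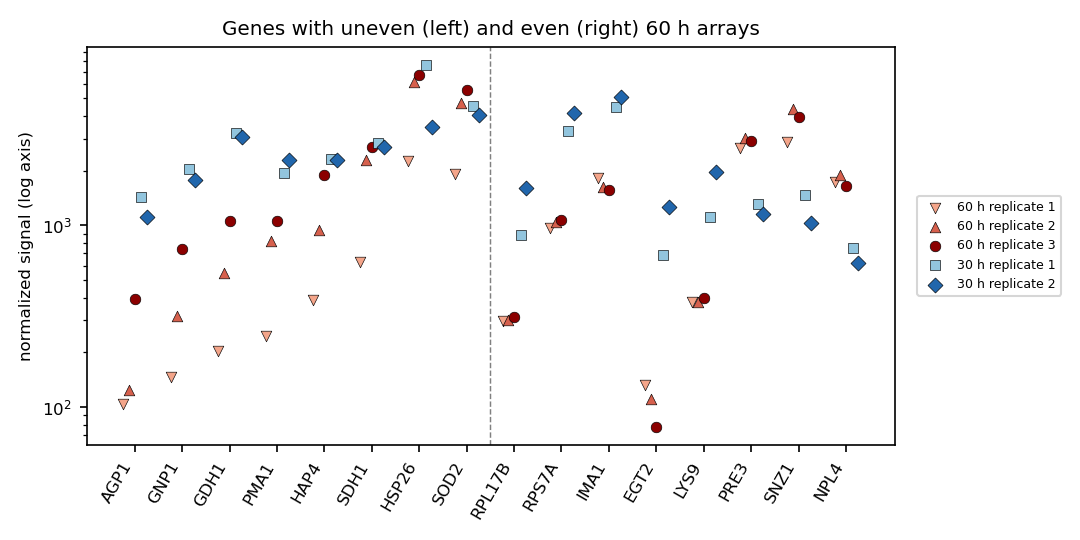
Normalized signal (log axis) on the 3 arrays of 60 h (red shades) and the 2 of 30 h (blue shades) for 8 genes whose 60 h arrays were uneven (left of the dashed line) and 8 whose arrays were even (right), chosen after their values were seen. On the left replicate 1 is the lowest and replicate 3 the highest of the 60 h arrays, as in GDH1 (204, 544 and 1059), and on the right they lie closer together, as in RPL17B (298, 303 and 315).

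The same order among the 60 h arrays was seen in YHR033W and AQY1, but above the 30 h level. YHR033W, of unknown role, had 456, 1634 and 2768 at 60 h, against 694 and 309.7 at 30 h, and passed on replicate 3 (2.58, adjusted p = 0.017) but not with all arrays (adjusted p = 0.11). AQY1, an aquaporin known from spores, had 237, 870.0 and 1659.8, against 374 and 64.6 at 30 h, with replicate 1 between the 30 h arrays. It rose by 2.17 ± 0.71 with all arrays and by 3.42 on replicate 3, with 0.90 without 30 h replicate 2, where it did not pass. Its call also ended without 60 h replicate 2 or 3, 80 h replicate 2 or 102 h replicate 1.

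Over all tested probe sets, replicate 1 was at least 2-fold below replicate 3 for 558 (10.5%) and at least 2-fold above it for 321 (6.01%). Replicate 1 was lowest and replicate 3 highest in 1180 of all tested probe sets (22.1%), and the reverse order was seen in 1881 (35.2%). Of the 253 falls that did not hold, 49 (19.4%) had replicate 1 at least 2-fold below replicate 3, and 134 (53%) were ordered with replicate 1 lowest and replicate 3 highest. Their median changes were -1.06, -0.78 and -0.54 on replicates 1, 2 and 3. The 374 falls that held had medians of -0.91, -1.05 and -1.08. The 499 rises that did not hold had medians of 0.96, 0.70 and 0.50, with replicate 1 highest and replicate 3 lowest in 308 (61.7%), and the 367 that held had medians of 0.98, 1.01 and 0.93. The rule for holding itself used replicate 3, so these shares describe the sets and are no test.

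Gene length moved with the difference on replicate 1. Lengths from an annotation of assembly R64 were matched for all 5298 tested genes. Across these genes, which are not independent replicates, log2 length and change correlated at Pearson r = -0.12, -0.05 and 0.02 on replicates 1, 2 and 3. In the 1060 shortest genes (up to 672 bases) the median change was 0.39, 0.12 and 0.01 on the same arrays. These genes gave 205 rises and 92 falls with all arrays but 76 and 100 on replicate 3, whereas the 1060 longest (2121 bases and more) gave 141 and 141, against 82 and 73. Among short genes named above as higher at 60 h, COX9 (180 bases), NOP10 (177), INH1 (258) and ATP17 (306) had their highest 60 h signal on replicate 1. On replicate 3 they rose by 0.95, 0.97, 1.34 and 0.96. MFA1 (111), TRX3 (384), MPC3 (441), UMP1 and SPI1 (447), COX23 (456) and RPC25 (639) also had their highest 60 h signal on replicate 1. LSO1 (282), RRN10 (438), GRE1 (507), GCV3 (513) and RRS1 (612) did not. The part of the low 5′ signal in these differences was not tested.

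The same genes can be placed beside the other times, as means ± SD of normalized signal over 3 arrays each, with 2 arrays at 30 h. EGT2 stood at 1219.8 ± 94.5 after 8 h, 972 ± 406 after 30 h and 107 ± 27.2 after 60 h, and then at 68.5 ± 2.63 after 80 h and 99.6 ± 20.7 after 102 h. CTS1 had 821 ± 145, 1097 ± 386, 204 ± 40.5, 208 ± 12.4 and 311 ± 21.4 at the same times. Both were low at 80 and 102 h too.

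In the same order of times, RPL17B had 1825 ± 113, 1242 ± 499.9, 305 ± 8.45, 693 ± 28.1 and 700.1 ± 18.6, so its lowest level was at 60 h. PRE3 had 1199.9 ± 84.4, 1231 ± 108, 2868 ± 201, 1935 ± 105 and 1739 ± 95.2, with its highest level at 60 h. SNO1 had its highest mean at 60 h, with 60.1 ± 17.6, 85.4 ± 38.4, 570.1 ± 117, 127 ± 25.8 and 102 ± 10.8. SLF1 had 27.3 ± 2.01, 23.9 ± 3.71, 239 ± 48.4, 169.8 ± 77.1 and 53.4 ± 13.1. INO1 had 327 ± 28.8, 599 ± 362, 2829 ± 514, 3109.8 ± 216 and 2706 ± 93.3, and so differed little between 60, 80 and 102 h. These later values are given as a description, and differences between 60 h and the later times were not tested here.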

How the data were processed

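Triplicate samples, 2 of them used at 30 h, were drawn from 1 fermentation, and total RNA was labelled after oligo-dT priming, per the labels' protocols. The values are probe set signal intensities as deposited by the authors. GCOS 5.0 is named, per the submitters' processing notes, and their scaling target is not stated in the sources used here. Array medians of the deposited intensities span 0.78 on the log2 scale, so the arrays were quantile normalized. Signals under a floor of 5.58 were set to it, and log2 values were taken. Probe sets were named through the platform annotation, and S. cerevisiae probe sets with a signal over 22.1 on at least 2 arrays of some time were tested.

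The limma fit held all 14 arrays in 5 groups with an intensity trend, and tested 60 h minus 30 h with Benjamini-Hochberg adjustment over 5338 probe sets at 0.05. A fit without 60 h replicates 1 and 2 defined what holds on replicate 3. The fits were tested on simulated data. Bounds ("at least") apply where all arrays of a time were not above background. The number of arrays limits the precision.

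Named genes were the 15 largest rises and 15 largest falls that held without overlap, up to 6 members of each of 54 gene lists, a set of key genes, and up to 6 genes called on replicate 3 only. A gene with several probe sets is represented by the brightest. The members, lists and tests were chosen with earlier results of these data known. Gene lengths came from RefSeq's table of assembly R64. Replicate numbers did not pair the samples. Alternatives covered scaling, floor, filters, array weights, a 5′ to 3′ covariate, the replicate block and each array left out. R 4.3.3, limma 3.58.1, Python 3.11.15 and matplotlib 3.10.9 were used.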

Additional observations from a re-analysis of the deposited data

How the results depend on the processing

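The number of probe sets higher at 60 h was 866 and ranged over 335 to 1053 as each array was left out in turn, and the number lower was 627, with 224 to 782. With replicate 3 as the only 60 h array the counts were 456 (228 to 951) and 473 (259 to 831), and those that held were 367 (164 to 667) and 374 (163 to 582). The lowest counts of the full fit came without 30 h replicate 2, and 951 came without 8 h replicate 1. Using only the 5 arrays of both times gave 113 higher and 117 lower. With replicate 3 and both 30 h arrays alone, limma called 0 higher and 0 lower, 571 and 589 passed an unadjusted p of 0.05, and so none held. An adjusted p of 0.01 gave 435 and 370, then 159 and 231 on replicate 3, of which 129 and 189 held. Array quality weights gave 289 and 309, then 169 and 228 on replicate 3, of which 147 and 216 held. Adding the control 5′ to 3′ ratio to the model as a covariate gave 944 lower, then 944 higher and 838 lower on replicate 3, of which 843 and 744 held. Without 60 h replicates 1 and 2 the higher count was 456. The deposited scale gave 305 lower on replicate 3. With the replicate number as a block, 205 higher and 256 lower passed on replicate 3, and 185 and 234 held. Deviations of arrays sharing a number did not correlate (r = -0.03 and -0.01), so the block was not used to pair samples. Fewer arrays leave fewer degrees of freedom, and the cause of the other moves was not tested.

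Among single genes the sign changed for HSP26 and SOD2 alone, neither of which passed. HSP26 was 0.39 without 60 h replicates 1 and 2 or the 3 arrays of low 5′ signal, 0.55 with the covariate and 0.056 with weights, and it ranged over -0.74 to 0.39 as each array was left out. SOD2 was 0.38, 0.38, 0.39 and 0.048 under the same settings, with -0.52 to 0.25 as each array was left out. The median of general stress genes was 0.12 with the covariate and ranged over -0.081 to 0.091 as each array was left out, and that of tricarboxylic acid cycle genes was -0.0033 with centred arrays. Over all alternatives, 4398 values of single genes kept direction and side of the threshold, 167 lost the call, 11 gained it and 11 changed sign. With only the 5 arrays, 23 large-subunit and 12 small-subunit ribosomal protein genes fell and 12 proteasome genes rose. FLO10 was -1.74 with the floor doubled and -3.87 with a floor of 1. Signals near background limit such values. A block for chip lot or scan and a search of promoters for motifs were not run.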
